A study of Mus musculus with 4 samples.

Results

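Vesicle traffic and secretory pathway genes were examined in mouse embryonic stem (ES) cells, the cultured pluripotent cells of the early embryo. The genes were taken by name: every probe with a single gene whose symbol opened with Rab, Arf, Vps, Snx, Stx, Vamp or Sec and a number, with Cop and a coat subunit letter (a, b, e, g or z), or with Ap1 to Ap4 and a subunit letter. The naming rule itself uses no measured value, although it was set with earlier results of these data known. It found 102 genes on 113 probes, out of 6025 genes and 9480 probes on the array, and probes of one gene were averaged. The tested RNA came from fosBd/d ES cells, whose alleles are both of the d form and make DFosB as their sole product, and from fosB-null ES cells. Each mutant was set against wild type ES cells on 2 cDNA microarrays with 2 colours, the second array with the dyes exchanged, so 4 arrays were used in all. All groups shared the same treatment: by the series title, 72 h of serum starvation and then 4 h of serum, in culture without feeder cells. DFosB is the short splice form of FosB, a Fos-family subunit of the transcription factor AP-1.

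Proteins for export enter the endoplasmic reticulum (ER) through the Sec61 translocon and leave it in COPII-coated vesicles. COPI vesicles return material from the Golgi, and adaptor complexes with or without clathrin sort cargo at the trans-Golgi network and endosomes. Rab and Arf GTPases mark the membranes and recruit the coats and tethers, Vps proteins and sorting nexins work on endosomes and lysosomes, and SNARE proteins (the syntaxins, VAMPs and Sec22) fuse vesicle and target. Many of these genes are used by every cell, while some copies, such as the mu subunit Ap1m2, are best known from epithelia. The adaptor complex named AP-1 has nothing in common with the transcription factor AP-1 except its name.

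The 3 members that were at least 2-fold on both fosBd/d arrays, and Rab15, which came just short of that, had promoter windows in the RefSeq table for GRCm38.p6. A window ran from 250 bases before to 50 bases after a gene's start and is shown 5′ to 3′ on the gene's own strand. They are given because these genes had the largest values that both arrays shared. Capitals mark the letters TGANTCA, the site of the transcription factor AP-1, searched on both strands.
Ap1m2, chr9:21312284-21312583, minus strand: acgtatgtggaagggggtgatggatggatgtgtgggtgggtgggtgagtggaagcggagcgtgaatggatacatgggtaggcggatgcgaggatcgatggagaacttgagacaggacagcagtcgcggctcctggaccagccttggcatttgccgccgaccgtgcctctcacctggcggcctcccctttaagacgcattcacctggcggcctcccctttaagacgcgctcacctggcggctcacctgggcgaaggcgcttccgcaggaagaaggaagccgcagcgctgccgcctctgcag
Vamp8, chr6:72390618-72390917, minus strand: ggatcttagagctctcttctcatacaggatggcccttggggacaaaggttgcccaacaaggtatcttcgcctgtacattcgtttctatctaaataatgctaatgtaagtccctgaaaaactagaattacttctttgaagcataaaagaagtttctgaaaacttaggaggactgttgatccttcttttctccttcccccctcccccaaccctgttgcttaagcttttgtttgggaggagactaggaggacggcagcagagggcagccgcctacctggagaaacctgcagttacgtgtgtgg
Stx3, chr19:11819354-11819653, minus strand: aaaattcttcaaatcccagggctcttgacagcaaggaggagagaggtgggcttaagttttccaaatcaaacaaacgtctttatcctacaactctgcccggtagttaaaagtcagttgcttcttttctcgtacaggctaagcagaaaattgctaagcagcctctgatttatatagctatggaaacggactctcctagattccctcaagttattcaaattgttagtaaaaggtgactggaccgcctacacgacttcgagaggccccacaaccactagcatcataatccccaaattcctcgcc
Rab15, chr12:76818325-76818624, minus strand, 1 of its 4 windows: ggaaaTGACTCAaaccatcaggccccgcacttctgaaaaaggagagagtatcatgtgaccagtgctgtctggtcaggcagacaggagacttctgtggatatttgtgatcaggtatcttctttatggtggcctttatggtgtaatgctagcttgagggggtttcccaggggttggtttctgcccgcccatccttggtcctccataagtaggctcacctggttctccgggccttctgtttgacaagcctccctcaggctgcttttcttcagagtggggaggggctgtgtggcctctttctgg
The letters occurred once in the Rab15 window, beginning 245 bases before that start, and not in the other 3 windows shown. That Rab15 window is shown because it held the letters, and the Rab15 windows not shown did not hold them. In all, 81 members had 98 windows, and 5 windows (5.1%) held the letters, against 5.89% of the 6150 windows of genes on the array and 7.81% of all 32851 windows. The 5 members were Ap4s1, Rab15, Rab39b, Sec61b and Vps13d. Apart from Rab15 these had fosBd/d means between -0.14 and 0.14. A match is a description of the letters, and no binding was measured.

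Another motif of the secretory pathway, the letters TGACGTGG (searched on both strands), is bound by ER stress factors. It was held by 3 of the 81 members with a window (3.7%), against 1.05% of genes on the array and 0.714% of all genes. By windows this was 4 of 98 (4.08%), against 0.862% on the array, with 1 site in Arf1 counted in 2 overlapping windows. The members were Arf1, Copb2 and Sec23a, whose products build the COPI and COPII vesicles. The stretches around the motif, which is in capitals and reads in reverse complement in Copb2, are shown so that the 3 can be compared.
Arf1, chr11:59228228-59228257, minus strand: gcggcaggcgcTGACGTGGctgccgtcagc
Copb2, chr9:98563713-98563742, plus strand: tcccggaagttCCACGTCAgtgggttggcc
Sec23a, chr12:59011993-59012022, minus strand: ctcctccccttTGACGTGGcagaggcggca
Their fosBd/d means were 0.51 for Arf1, 0.05 for Copb2 and 0.21 for Sec23a on the log2 ratio scale. The lysosomal gene motif TCACGTGA stood in 4 members (4.94%), Rab24, Sec23ip, Sec62 and Vps26a, against 2.01% of genes on the array. A cyclic AMP response element, TGACGTCA, stood in 1 window (1.02%), against 2.5%. The longer ER stress element (CCAAT, 9 bases of any kind, CCACG) stood in 0 member windows, against 0.114%. The 8-letter motifs share the core ACGT, and the longer element ends in letters that TGACGTGG holds on the other strand, so a window can hold overlapping matches. The median GC content was 60.5% over member windows and 60.2% over windows of genes on the array.

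Each probe had a single deposited number on every array, read as a log10 ratio and given here as a log2 ratio, on which 1.00 is 2-fold. Ratios carry no expression levels, so the ES cell label could not be checked against marker levels, and Fosb itself was not analysed here. Which way the ratios run was not settled. On fosBd/d replicate 1 and fosB-null replicate 2 the zeros carry a minus sign, as multiplication by -1 leaves them, so one array of each swap appears to have been turned. Across all 9480 probes, arrays of the 2 mutants with the mutant RNA in the same labelled dye correlated at r = -0.46 and r = -0.37. In each of these pairs 1 array carries the minus signs and 1 does not. The pairs with both or neither carrying them correlated at r = 0.34 and r = 0.33. The labels also call each dye red or green, and those words give the opposite direction to the dye names in both mutants. By the dye names a positive value would stand for more mutant than wild type RNA in fosBd/d, but for less in fosB-null. By a single convention for both mutants the fosB-null sign would be the opposite, so fosB-null values are given by sign alone. Differences between the mutants therefore have 2 readings, one as deposited and one with the sign of the fosB-null value turned. The labels name no separate cultures, so any p-value measures the spread between these arrays, which may be technical. In bulk RNA, fewer cells of a type and less RNA per cell cannot be told apart.

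In fosBd/d cells the traffic genes lay close to wild type as a group, with a few genes far from it. The median of the 102 means was 0.07, with quartiles of -0.06 and 0.31, beside -0.02 over all 6025 genes, with quartiles of -0.25 and 0.22. On the single arrays the median was 0.025 on replicate 1 and 0.17 on replicate 2. Both arrays were positive for 35 members (34.3%), where 25.0% of all genes were, and both were negative for 19 members (18.6%), where 24.2% of all genes were. The other 48 had opposite signs on the 2 arrays or a value of exactly 0. At least 2-fold positive on both arrays were 3 members (2.94%), Ap1m2, Vamp8 and Stx3, where 1.53% of all genes were. Of the members, 0 were 2-fold negative on both arrays, where 0.266% of all genes were.

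Single genes did not pass the test. In limma, 0 of 102 members and 0% of all genes had an adjusted p under 0.05 in fosBd/d, and the smallest adjusted p was 0.195. Unadjusted, 22 members (21.6%) had p under 0.05 in limma, where 19.5% of all genes had, so that share is near the background. By direction, 20 members (19.6%) were positive and 2 (1.96%) negative among these, against 12.3% and 7.19% of all genes, a difference that was not tested. The count of 22 members rests on how the dye term is signed, and no split by direction is given for the other sign. With the sign taken from the labelled dye, 6 members (5.88%) had an unadjusted p under 0.05 in limma, where 5.15% of all genes had. Leaving out 1 array, which also drops the dye term, gave 11 and 9 without fosBd/d replicates 1 and 2 and 5 without either fosB-null array. Shares of all genes with an array left out are not given. The dye direction itself was as wide as the mutant effect for many genes, with a median size of 0.18 over the members and 0.19 over all genes. It was larger than the fosBd/d mean in 42 of 102 members and in 2500 of 6025 genes. Across the 102 members the 2 fosBd/d arrays correlated at r = 0.19, a description over genes that share arrays and dyes. Across all 6025 genes they correlated at r = 0.05. The 2 fosB-null arrays correlated at r = -0.13 across the members and r = -0.15 across all genes, so they did not reproduce each other.

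**Figure D1:**
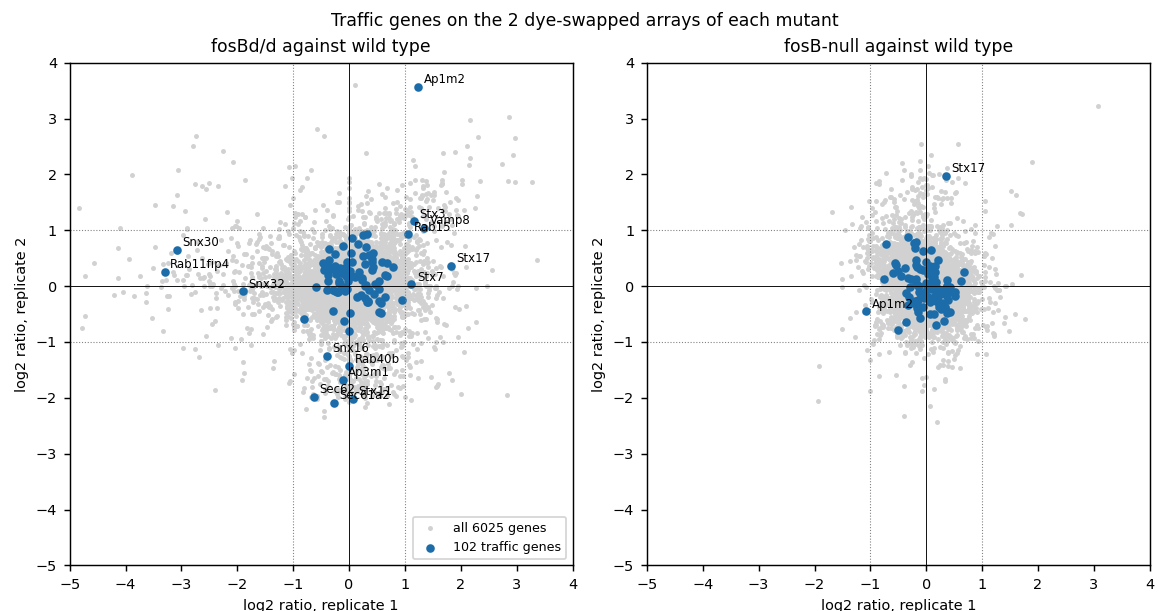
Log2 ratio of each gene on replicate 1 (horizontal) against replicate 2 (vertical), for fosBd/d (left) and fosB-null (right), with the 102 traffic genes in blue over all 6025 genes in grey and dotted lines at 2-fold. In fosBd/d, Ap1m2, Vamp8 and Stx3 lie past 2-fold on both arrays, and further members lie past it on 1 array alone.

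Markers of another cell type stood high on both fosBd/d arrays. Of 40 listed genes of the extraembryonic endoderm, the lineage that lines the yolk sac, 30 were measured. On both fosBd/d arrays 24 (80.0%) were positive and 0 negative, where 25.0% and 24.2% of all genes were. At 2-fold on both fosBd/d arrays 20 were positive and 0 negative, where 1.53% and 0.266% of all genes were. The median of the 30 genes was 1.58 in fosBd/d and -0.13 in fosB-null. Their median was 1.71 on fosBd/d replicate 1 and 1.57 on replicate 2. In fosB-null 8 were positive and 13 negative on both arrays, where 19.5% and 21.9% of all genes were. At 2-fold on both fosB-null arrays 3 were positive and 1 negative, where 0.166% and 0.0830% of all genes were. Of 7 measured pluripotency genes, 2 (28.6%) were positive and 3 (42.9%) negative on both fosBd/d arrays. Their median was -0.24 in fosBd/d and -0.37 in fosB-null. Of 12 measured fibroblast genes, 6 were positive and 3 negative on both fosBd/d arrays, with a median of 0.18 in fosBd/d and -0.16 in fosB-null. Whether cells of these other types were present, and whether they had a part in the traffic gene values, was not tested.

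**Figure D2:**
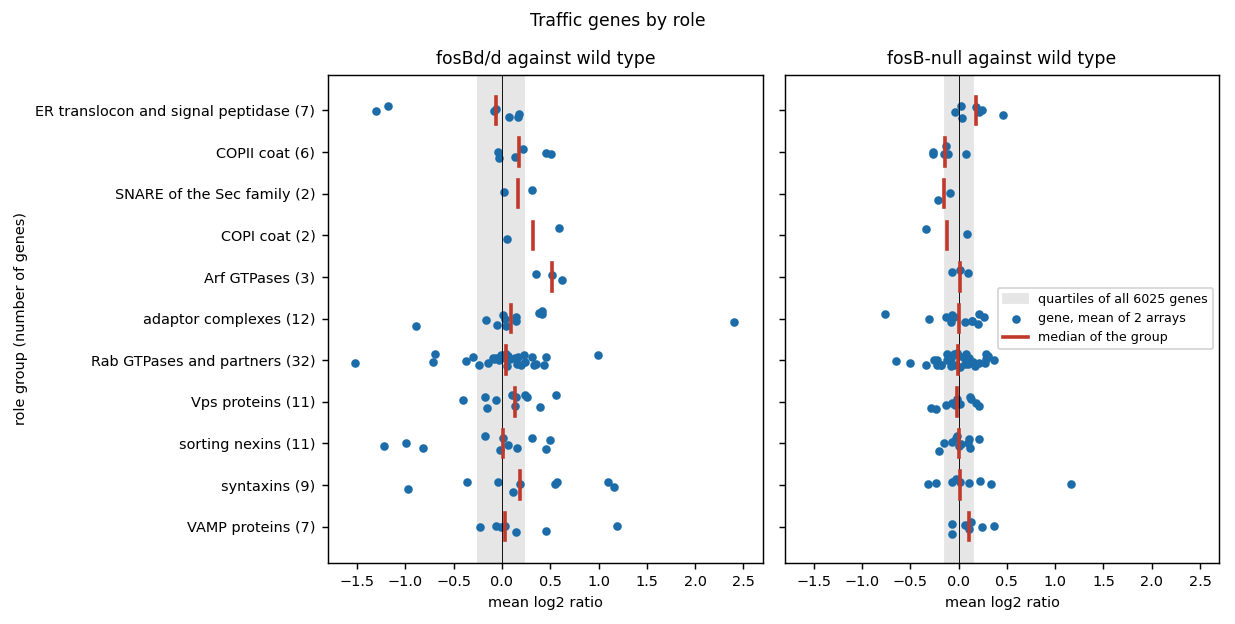
Mean log2 ratio of each of the 102 traffic genes by role group, for fosBd/d (left) and fosB-null (right); each point is a gene's mean of 2 arrays, red bars are group medians and grey bands the quartiles of all 6025 genes. The fosBd/d group medians run from -0.06 for the translocon to 0.51 for the Arf GTPases, and the fosB-null medians from -0.15 to 0.18.

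At the entry to the ER, 2 genes had far lower values than the rest in fosBd/d cells, and each was past 2-fold on 1 array only. Sec62, a translocon partner for short precursors, had log2 ratios of -0.63 and -1.99 on the 2 fosBd/d arrays, against 0.37 and -0.0036 on the fosB-null arrays. Sec61a2, the second copy of the channel-forming alpha subunit, had -0.27 and -2.08 in fosBd/d, against 0.22 and -0.15 in fosB-null. In both genes that array was replicate 2. The main alpha subunit Sec61a1 stood at 0.23 and 0.11 in fosBd/d, so the 2 copies were 1.35 apart in their means on the log2 scale. That was the widest gap among the 11 sets of close copies examined, and cDNA probes of close copies can share signal. The small subunits Sec61b (-0.19 and 0.06) and Sec61g (-0.05 and 0.19) lay near 0 in fosBd/d. Sec61g was positive in fosB-null, with 0.67 and 0.26, the highest fosB-null mean of the translocon group (0.46 ± 0.29, SD, n = 2). Sec63, which brings the chaperone BiP to the channel, had -0.45 and 0.28 in fosBd/d, and its 2 probes differed in sign. Over the 7 genes of this group, which includes the signal peptidase subunit Sec11c, 1 (14.3%) was positive and 2 (28.6%) were negative on both fosBd/d arrays. Over all genes the shares were 25.0% and 24.2%.

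The COPII coat, which buds vesicles from the ER, had small and mostly positive fosBd/d values. Sec23ip, a partner of the inner coat at ER exit sites, stood at 0.43 and 0.59 in fosBd/d, against -0.24 and -0.30 in fosB-null. Sec31a, of the outer cage, stood at 0.16 and 0.75 in fosBd/d, against 0.17 and -0.70 in fosB-null. Sec13, its cage partner, stood at 0.11 and 0.16 in fosBd/d, against -0.28 and -0.02 in fosB-null. The inner coat subunit Sec23a had 0.18 and 0.25 in fosBd/d, while its close copy Sec23b had -0.47 and 0.41. The cargo-selecting Sec24b was near 0 on both, at -0.06 and -0.03, and its 2 probes disagreed in sign. Of the 6 genes, 4 (66.7%) were positive and 1 (16.7%) was negative on both fosBd/d arrays, where 25.0% and 24.2% of all genes were. The median was 0.17 in fosBd/d and -0.14 in fosB-null.

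Among the COPI subunits and Arf GTPases, Arf4 and Copa had the highest fosBd/d means. Copa, the alpha subunit of the COPI coat, stood at 0.25 and 0.92 in fosBd/d, against -0.11 and -0.57 in fosB-null. The arrays of the 2 mutants did not overlap for Copa as deposited, but with the fosB-null sign turned (0.11 and 0.57) they did. Copb2, the beta-prime subunit, stood at -0.26 and 0.36 in fosBd/d, against 0.30 and -0.12 in fosB-null. Arf4, a small GTPase of the early Golgi, had 0.32 and 0.93 in fosBd/d, against 0.27 and -0.41 in fosB-null. Arf1, which recruits COPI and the trans-Golgi adaptors, had 0.59 and 0.44 in fosBd/d, against -0.16 and 0.35 in fosB-null. Arf1 was therefore positive on both fosBd/d arrays, as was Arf4, whereas Arf2 was split at 0.94 and -0.24. The ER-Golgi SNARE Sec22b stood at 0.53 and 0.09 in fosBd/d and Sec22a at -0.22 and 0.27.

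**Figure D3:**
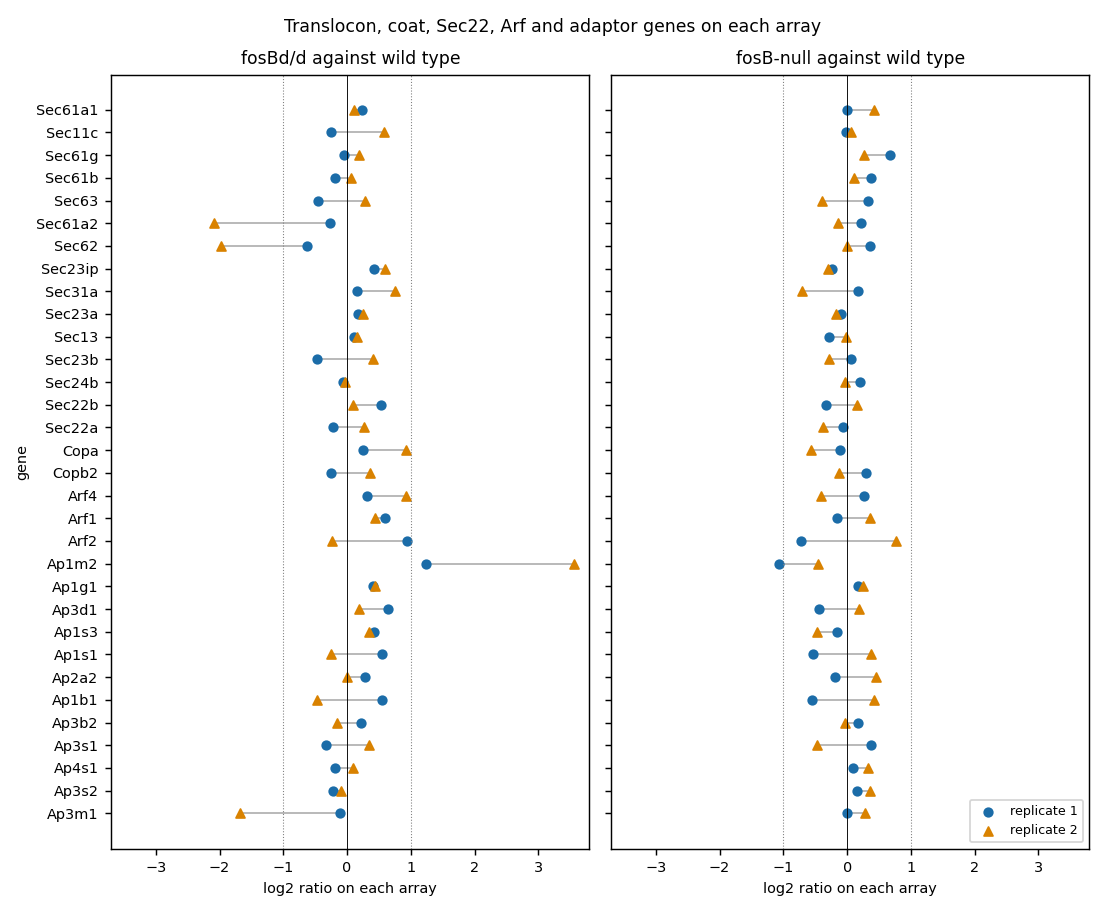
Log2 ratio on each array (circles, replicate 1; triangles, replicate 2) for the translocon, COPII, Sec22, COPI, Arf and adaptor genes from top to bottom, with fosBd/d on the left and fosB-null on the right and dotted lines at 2-fold. Ap1m2 lies past 2-fold on both fosBd/d arrays, while Sec61a2, Sec62 and Ap3m1 lie past it on replicate 2 alone.

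Ap1m2 had the highest fosBd/d value of all 102 genes. It encodes mu1B, the epithelial medium subunit of the adaptor complex AP-1, which sorts cargo to the basolateral membrane. Its log2 ratios were 1.24 and 3.56 on the fosBd/d arrays, against -1.07 and -0.45 on the fosB-null arrays. Both fosBd/d arrays were positive and both fosB-null arrays negative as deposited. The fosBd/d arrays lay above the fosB-null arrays in either reading of the fosB-null sign. The fosBd/d mean was 2.40 ± 1.65 and the fosB-null mean -0.76 ± 0.44 (SD, n = 2 each), so the 2 arrays of the swap differed by more than 2 on the log2 scale. The other subunits of the same complex were much nearer to 0 in fosBd/d. Ap1g1, the gamma subunit, stood at 0.40 and 0.43, and Ap1s3, a sigma subunit, at 0.42 and 0.34. Ap1s1 (0.54 and -0.26) and Ap1b1 (0.54 and -0.47) had opposite signs on the 2 arrays. In the AP-3 complex, which sorts to lysosome-related organelles, Ap3d1 stood at 0.64 and 0.19, while the medium subunit Ap3m1 stood at -0.12 and -1.67. Ap3m1 was thus far from 0 on replicate 2 only. The other adaptor subunits lay between -0.34 and 0.35 on each fosBd/d array. Over the 12 adaptor genes 4 (33.3%) were positive and 2 (16.7%) negative on both fosBd/d arrays, where 25.0% and 24.2% of all genes were. Their fosBd/d median was 0.09.

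The 32 Rab GTPases and Rab partners had a fosBd/d median of 0.04. On both fosBd/d arrays 6 (18.8%) were positive and 4 (12.5%) negative, where 25.0% and 24.2% of all genes were. Rab15, which acts in recycling through endosomes, had 1.06 and 0.93 in fosBd/d, against -0.37 and -0.63 in fosB-null. The fosBd/d arrays agreed closely (0.99 ± 0.09, SD, n = 2), and no fosB-null array overlapped them in either reading of the fosB-null sign. Rab30, a Golgi Rab, had 0.68 and 0.19 in fosBd/d, against -0.51 and -0.78 in fosB-null. With the fosB-null sign turned (0.51 and 0.78) the arrays of the 2 mutants overlapped. In the other direction, Rab26, which acts on secretory granules, had -0.81 and -0.58 in fosBd/d, against 0.06 and 0.36 in fosB-null. Rab23, known as a brake on Hedgehog signalling, had -0.30 and -0.45 in fosBd/d, against -0.16 and -0.28 in fosB-null, and both of its probes were negative. Rab12, which acts in transport of the transferrin receptor to lysosomes, had -0.59 and -0.01 in fosBd/d, against 0.63 and 0.10 in fosB-null. The lowest mean of the group was that of the Rab11 effector Rab11fip4, but its arrays disagreed, at -3.30 and 0.25 in fosBd/d. Rab10 and the 2 copies of Rab11, which serve transport to the cell surface and recycling, had fosBd/d means between 0.03 and 0.20, and each had probes of opposite sign in fosBd/d or fosB-null. Rab7 of late endosomes (0.28 and 0.39) and Rab14 of the trans-Golgi network (0.41 and 0.29) were positive on both arrays.

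In the endosomal Vps group, Vps11, a core subunit of the tethers HOPS and CORVET, stood at 0.79 and 0.34 in fosBd/d, against -0.35 and -0.11 in fosB-null. Its fosBd/d arrays lay above both fosB-null arrays as deposited, but not with the fosB-null sign turned (0.35 and 0.11). The retromer, which returns receptors from endosomes to the Golgi, had Vps26a at 0.25 and 0.53 and Vps35 at 0.04 and 0.43 in fosBd/d. The ESCRT ATPase copies stood apart on 1 array, with Vps4a at 0.01 and -0.80 and Vps4b at -0.02 and 0.22. Vps13d, a lipid transfer protein, had the lowest fosB-null mean of the group (-0.17 and -0.40), and 0.57 and -0.30 in fosBd/d. Over the 11 Vps genes 4 (36.4%) were positive and 3 (27.3%) negative on both fosBd/d arrays, where 25.0% and 24.2% of all genes were.

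Sorting nexins bind endosomal lipids through a PX domain, and 3 of the 11 measured had fosBd/d means from -0.82 down to -1.22. Snx30 had -3.09 and 0.65 in fosBd/d, so its arrays had opposite signs. Snx32 had -1.91 and -0.09, and Snx16, of late endosomes, had -0.39 and -1.25. Each was past 2-fold on a single array, and in fosB-null the 3 had means of -0.02, -0.06 and 0.21. Snx9, which joins dynamin at endocytic pits, had the highest fosBd/d mean of the group (0.30 and 0.69), and Snx3, a retromer partner, had 0.41 and 0.49. The group held 3 genes (27.3%) positive and 3 (27.3%) negative on both fosBd/d arrays, near the 25.0% and 24.2% of all genes.

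The SNARE proteins held 2 of the 3 genes that were past 2-fold on both fosBd/d arrays. Stx3, a syntaxin of apical membranes, stood at 1.16 on each fosBd/d array, against 0.08 and -0.06 on the fosB-null arrays. Vamp8, a late endosomal SNARE that also serves granule release, stood at 1.35 and 1.04 in fosBd/d, against 0.09 and 0.65 in fosB-null. For both genes the lower fosBd/d array lay above the higher fosB-null array. Stx17, known for fusing autophagosomes with lysosomes, stood at 1.83 and 0.36 in fosBd/d, against 0.35 and 1.98 in fosB-null. It was positive on all 4 arrays and past 2-fold on 1 array of each mutant. Stx7 of late endosomes had 1.12 and 0.03 in fosBd/d, against 0.21 and 0.46 in fosB-null. Stx12 of recycling endosomes was positive on both fosBd/d arrays (0.67 and 0.42), as was Vamp3, its recycling partner (0.35 and 0.56). Stx11, a syntaxin of cytotoxic granules, had 0.07 and -2.01, and Stx2 of the plasma membrane -0.08 and -0.63. Of the 9 syntaxins 6 (66.7%) were positive and 2 (22.2%) negative on both fosBd/d arrays, with a median of 0.19. Of the 7 VAMPs 3 (42.9%) were positive and 2 (28.6%) negative, with a median of 0.03. Over all genes the shares were 25.0% and 24.2%. These groups are small, and the differences in share were not tested.

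**Figure D4:**
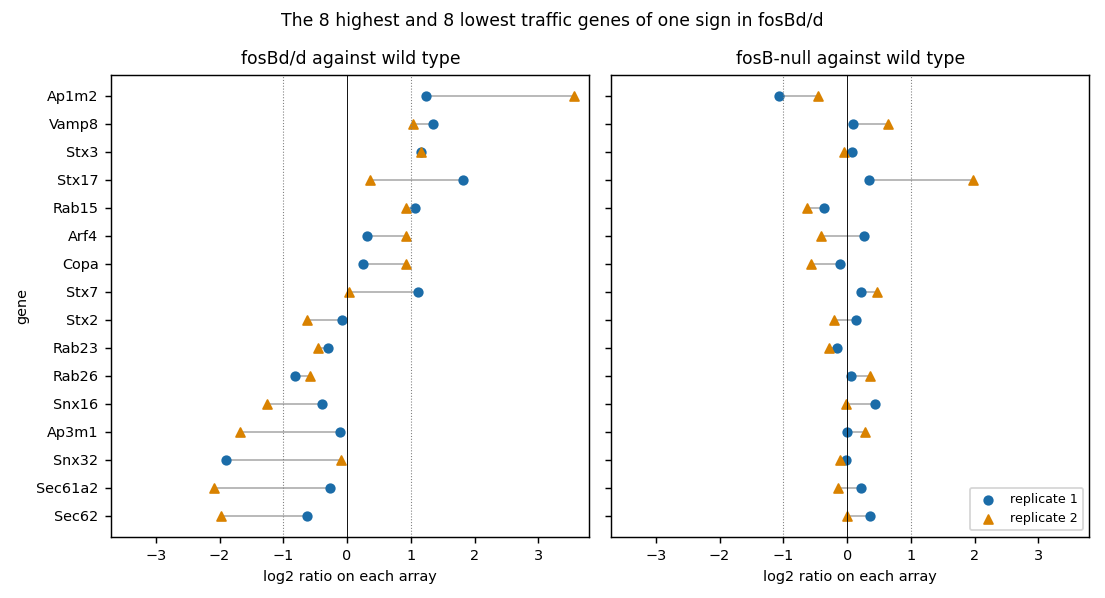
Log2 ratio on each array (circles, replicate 1; triangles, replicate 2) for the 8 highest and the 8 lowest traffic genes with one sign on both fosBd/d arrays, with fosBd/d on the left and fosB-null on the right and dotted lines at 2-fold. The low genes reach 2-fold on 1 fosBd/d array at most, while Ap1m2, Vamp8 and Stx3 pass it on both.

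Several of the largest values in fosBd/d were seen on 1 array alone. Of the 12 members past 2-fold on just 1 fosBd/d array, 9 were negative there. The share of all genes past 2-fold on 1 array alone is not given, so this count is not read as a trait of the members. On replicate 1 alone 3 were positive (Rab15, Stx17 and Stx7) and 3 negative (Rab11fip4, Snx30 and Snx32). On replicate 2 alone 6 were past 2-fold, all negative (Sec62, Sec61a2, Stx11, Ap3m1, Snx16 and Rab40b). Rab40b had a value of exactly 0 on replicate 1 and -1.43 on replicate 2. Among the 10 members with several probes, 6 had probes of opposite sign in 1 mutant or the other, and the widest gap was that of Rab6b, whose 3 probes spanned 0.74 in fosBd/d and 0.81 in fosB-null.

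Sign aside, the median size of the traffic gene means was 0.18 in fosBd/d cells and 0.12 in fosB-null cells on the log2 scale, and over all genes it was 0.24 in fosBd/d and 0.15 in fosB-null. In fosB-null the median of the 102 means was 0.01, with quartiles of -0.12 and 0.13, beside 0.00 over all genes. Both arrays were positive for 18 members (17.6%), where 19.5% of all genes were, and both were negative for 20 (19.6%), where 21.9% of all genes were. At 2-fold on both arrays, 0 members were positive and 0 negative, where 0.166% and 0.0830% of all genes were. The member furthest from 0 by mean was Stx17 (1.16 ± 1.15, SD, n = 2), and Ap1m2, Rab30 and Rab15 had the lowest means (-0.76, -0.64 and -0.50). In limma 0 members and 0% of all genes had an adjusted p under 0.05, with a smallest adjusted p of 0.618. Unadjusted, 4 members (3.92%) had p under 0.05 in limma, where 6.82% of all genes had. With the dye term signed by the labelled dye the count was 0, where 0.863% of all genes had such a p. The dye direction was larger than the fosB-null mean in 57 of 102 members (55.9%), where it was in 57.4% of all genes.

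The difference between the mutants was largest for Ap1m2 as deposited, at 3.16 ± 1.20 (SE) on the log2 scale, and 1.64 with the fosB-null sign turned. Rab15 differed by 1.49 as deposited and by 0.49 with the sign turned, and Stx3 by 1.15 and 1.17. Stx3 is the gene of these whose difference hardly depends on the sign, since its fosB-null mean was 0.01. Stx17 differed by -0.07 as deposited and by 2.26 with the sign turned, so whether the mutants differ in it rests on the sign alone. In limma, 0 members and 0% of all genes had an adjusted p under 0.05 for the difference as deposited (smallest adjusted p 0.275), and 0 and 0% with the sign turned (0.41). Unadjusted, 16 members (15.7%) had p under 0.05 in limma as deposited, where 16.7% of all genes had, and 11 (10.8%) with the sign turned, where 11.1% had. With the dye term signed by the labelled dye, 3 members had such a p in either reading, where 2.74% of all genes had as deposited and 2.47% with the sign turned. For 11 members both fosBd/d arrays were positive while both fosB-null arrays were negative, and the reverse held for 7 members. These were 10.8% and 6.86% of the members, against 7.90% and 6.80% of all genes. As deposited these signs are opposite, and with the fosB-null sign turned they would be the same.

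**Figure D5:**
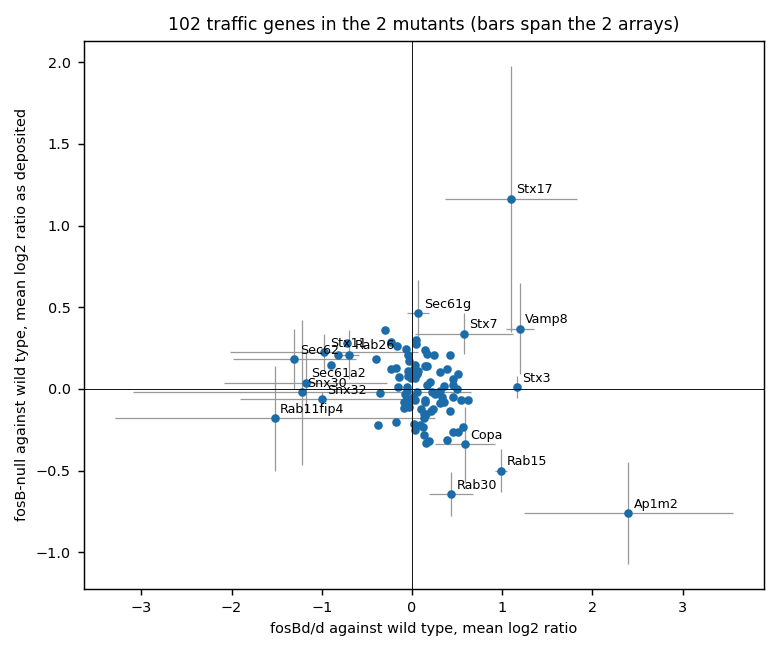
Mean log2 ratio of each of the 102 traffic genes in fosBd/d (horizontal) against fosB-null as deposited (vertical); bars on the labelled genes span the values of the 2 arrays. Ap1m2, Rab15, Rab30 and Copa lie to the right and below 0, Stx3 and Vamp8 to the right, and Stx17 to the right and above 0.

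Other genes of the same pathways were taken from 7 lists of 287 genes that the name rule does not reach, of which 133 were measured. In fosBd/d, 62 (46.6%) were positive and 23 (17.3%) negative on both arrays, against 25.0% and 24.2% of all genes. The median was 0.15, beside -0.02 over all genes. In limma 0 of the 133 had an adjusted p under 0.05, and 38 (28.6%) had an unadjusted p under 0.05, against 19.5% of all genes. Positive among these were 33 (24.8%), against 12.3% of all genes. These differences in share were not tested. The unadjusted counts used the dye term signed from the zeros. With the labelled dye the share of all genes was 5.15%, and no list count is given. The list of clathrin, endocytosis and sorting receptors had the highest median, 0.33; on both arrays 14 of its 29 genes were positive and 4 negative. ER translocation and signal peptide cleavage had 10 positive and 2 negative of 15 genes, with a median of 0.15, although the Sec-named translocon genes had a median of -0.06. SNARE regulators had 12 positive and 2 negative of 25, ESCRT genes 5 and 1 of 10, and GTPase regulators 10 and 5 of 25. ER to Golgi transport had 7 and 6 of 15, and Golgi tethers 4 and 3 of 14. At least 2-fold positive on both arrays were 2 genes, where 1.53% of all genes were. Lrp2 (megalin), an endocytic receptor of absorptive epithelia and visceral endoderm, had 1.67 and 1.90 in fosBd/d, against 0.33 and 0.62 in fosB-null. Kdelr3, a receptor that returns ER proteins from the Golgi, had 1.30 and 1.63 in fosBd/d and a fosB-null mean of 0.02. In fosB-null 28 of the 133 (21.1%) were positive and 30 (22.6%) negative on both arrays, with a median of 0.01. Over all genes the shares were 19.5% and 21.9%, so those of the lists are near the background.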

How the data were processed

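RNA of 2 mutants and wild type was measured on 4 arrays of 2 colours. The deposited values were read as log10 ratios of Agilent Feature Extraction, the software in the submitters' processing notes. For its version, background correction and dye normalization, nothing was stated (not given in the sources used here). Values were multiplied by 3.322 (the log2 of 10), without further normalization or filter. Probes were named from the platform annotation, and all 102 genes matched RefSeq. Replicates were numbered in accession order.

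limma 3.58.1 (R 4.3.3) was fitted to 6025 genes with 1 term for each mutant and 1 for the dye, leaving 1 residual degree of freedom, with Benjamini-Hochberg adjustment at 0.05, and was checked on simulated data. The planned dye term was the labelled dye of the mutant RNA. Its sign was set from the marks on exact zeros after the files were seen, and the labelled dye became an added alternative, whose counts stand beside the others. Fold rules needed 2-fold on both arrays. Signal intensities were not analysed here, and the number of arrays limits the precision.

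The genes named were the 2-fold ones, the 8 highest and 8 lowest of one sign per mutant, the 5 highest and 5 lowest differences, the extremes of each role group, all coat and adaptor subunits and genes with disagreeing probes. Rab7, Rab14, Rab39b, Rab40b, Vps26a, Vps4b, Snx3, Stx12, Vamp3, Rab24 and Sec11c were added after their values or promoters were seen. The members and lists were chosen with earlier results of these data known.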

Additional observations from a re-analysis of the deposited data

Results flagged for a closer look

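For 18 of the 102 members (17.6%) both arrays of one mutant had one sign and both arrays of the other mutant the opposite sign, as did 14.7% of all genes. The 14 of them among the 60 named genes, some of which were named for extreme values, are given here. Each value is the fosBd/d mean minus the fosB-null mean on the log2 ratio scale, first as deposited and then with the fosB-null sign turned. In 9 genes fosBd/d was positive and fosB-null negative as deposited. Ap1m2 differed by 3.16 and by 1.64, and Rab15 by 1.49 and 0.49. Rab30 differed by 1.08 and by -0.21, and Copa by 0.92 and 0.25. Vps11 differed by 0.80 and by 0.33, and Sec23ip by 0.78 and 0.24. Ap1s3 differed by 0.69 and by 0.07, Sec23a by 0.35 and 0.08, and Sec13 by 0.29 and -0.02. In 5 genes fosBd/d was negative and fosB-null positive as deposited. Ap3m1 differed by -1.04 and by -0.75, and Rab26 by -0.91 and -0.49. Rab12 differed by -0.67 and by 0.06, Ap3s2 by -0.42 and 0.10, and Vamp4 by -0.35 and -0.11. In limma the difference did not pass for any of the 14, with adjusted p between 0.275 and 0.432 as deposited and between 0.468 and 0.963 with the sign turned. With the sign turned, both mutants would read the same way in these genes, and the sign of the difference turns for Rab30, Sec13, Rab12 and Ap3s2.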

How the results depend on the processing

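Each array set a mutant directly against wild type, so that pairing is within every ratio. The labels carry no replicate numbers, so the arrays of the 2 mutants were not paired with each other. The adjusted p stayed above 0.05 for all members in each of the 4 comparisons under every alternative run. Counts of members with an unadjusted p under 0.05 in limma (22 in fosBd/d, 4 in fosB-null, 16 for the difference as deposited and 11 with its fosB-null sign turned) did depend on the processing. Shares of all genes are not given for the fits without the dye term, with scaled arrays or with an array left out. Those counts are therefore not read as traits of the members. Without the dye term they were 10, 2, 8 and 3. With the dye term signed by the labelled dye, an alternative chosen after seeing the data, they were 6, 0, 3 and 3. With arrays scaled to one spread the last was 6. Leaving out 1 array, which also dropped the dye term, gave 5 to 11 in fosBd/d, 0 to 3 in fosB-null, 1 to 10 for the difference and 2 to 7 with the sign turned, in each case lowest without a fosB-null array. An arm left with 1 array is assumed to vary like the other. The fosBd/d median ranged from 0.025 without replicate 2 to 0.17 without replicate 1. Without one of the arrays, 3 to 6 members were 2-fold positive (6 without fosBd/d replicate 2) and 0 to 6 negative (6 without fosBd/d replicate 1) in fosBd/d, and 0 to 1 of each in fosB-null. Counts over all genes without an array are not given, so those 2-fold counts are not read as traits of the members. A 1.5-fold threshold on both arrays gave 4 of 102 members positive and 1 negative (Sec62) in fosBd/d. Of all 6025 genes 233 were positive and 71 negative there, so the members' shares are near the background. Were the deposited values log2 rather than log10 ratios, 0 members would be 2-fold, and the fosBd/d means would be 0.72 for Ap1m2, 0.36 for Vamp8 and 0.35 for Stx3. The median difference between the mutants as deposited (0.05) was between 0.040 and 0.14 without one of the arrays, highest without fosBd/d replicate 1.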
